A study of Homo sapiens with 6 samples.

Results

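Cohesin is the protein ring that holds sister chromatids together and folds chromosomes into loops, and 10 of its genes are described here in REH cells that carried a hairpin against STAT3. They were chosen by symbol, as the ring subunits SMC1A, SMC3 and RAD21, the STAG1 and STAG2 subunits, the PDS5A and PDS5B regulators, the loader NIPBL and the acetyltransferases ESCO1 and ESCO2. All 10 have a row per the authors' deposited table of 26364 genes. REH is an established human leukaemia line of the B-cell precursor (acute lymphoblastic) type. Both groups were transduced with lentivirus, selected with puromycin for 3 days and cleared of dead cells before total RNA was taken. A scramble hairpin was carried by 3 libraries and a hairpin against STAT3 by the other 3, from independent experiments, and the labels do not say how many STAT3 hairpin sequences were used. What the table holds for a gene is its normalized count averaged over all 6 libraries, the log2 fold change between the groups and its p, raw and adjusted. It has no value for a single library, so the spread of the libraries cannot be shown.

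The closed ring has these subunits: SMC1A and SMC3 are long coiled-coil ATPases that meet at a hinge, and RAD21 is the kleisin that bridges their heads. STAG1 or STAG2 binds RAD21 and docks the complex on chromatin, NIPBL with its partner MAU2 loads cohesin and drives loop extrusion, and WAPL with a PDS5 protein releases it. ESCO1 and ESCO2 acetylate SMC3, which locks the ring on replicated DNA with the help of sororin (CDCA5), and HDAC8 removes that mark again. At anaphase the protease separase (ESPL1), held back until then by securin (PTTG1), cuts RAD21. STAT3 is a transcription factor downstream of cytokine receptors. In blood cancers STAG2, RAD21, SMC1A and SMC3 are recurrently mutated.

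The sequence before the start sites of these genes is shown first. RefSeq windows of 250 bases before to 50 bases after a start (GRCh38.p14) were used for 7 of the 10 genes. No window was available for RAD21, nor for ESCO1 and ESCO2, which had the lowest fold changes of the 10. Capitals mark the match, each sequence is on the gene's own strand, and matches were searched on both strands. Any of 3 strings of the kind bound by E2F factors (TTTGGCGC, TTTCCCGC or TTCGCGCC) was held by windows of 4 of the 7 genes, NIPBL, SMC1A, STAG1 and STAG2. Of all 27305 genes with a window, 3.85% hold one of them. The log2 fold changes of these 4 in shSTAT3 against scramble ran from −0.55 for SMC1A to −0.34 for NIPBL. The match of NIPBL also lies in the window of its divergent neighbour NIPBL-AS1, which rose (log2 change 1.38). Among the other genes of the 7, whose windows hold no exact match, PDS5B was at −0.83, SMC3 at −0.75 and PDS5A at −0.05. Near matches were not counted, and the stretch of PDS5A printed below holds ATTGGCGC, which differs from TTTGGCGC in its first letter. A link between these strings and the fold changes was not tested. The stretch for NIPBL is the whole interval between its annotated start and that of the divergent noncoding NIPBL-AS1 (chr5:36876701-36876758), and the others are 30 bases round the match for SMC1A (chrX:53422656-53422685), STAG1 (chr3:136752543-136752572) and STAG2 (chrX:123961996-123962025).
NIPBL: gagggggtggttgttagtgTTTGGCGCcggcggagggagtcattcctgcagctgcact
SMC1A: gcactgcggcgTTTCCCGCgcgggctacct
STAG1: cagcggccacgTTTCCCGCcccgctggtgc
STAG2: tgttggggggtTTTGGCGCcacttttgttt
The match begins 49 bases before the RefSeq start of NIPBL, 20 before one start of SMC1A, 183 before that of STAG1 and 51 before one of the starts of STAG2.

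The 2 PDS5 paralogs, whose fold changes lay far apart, both hold CCAAT, the NF-Y string, on the opposite strand (ATTGG as printed), 118 bases before the start in PDS5A (chr4:39978013-39978042) and 29 before it in PDS5B (chr13:32586411-32586440). SMC3 holds TTTGAA, a string of the cell cycle homology region, also on the opposite strand (TTCAAA as printed), 151 bases before its start (chr10:110567532-110567561).
PDS5A: ccgcgcggcaggtATTGGcgccaaccgggt
PDS5B: cgcggcggttcgATTGGagcagccgccgaa
SMC3: cagaattctagaTTCAAAagaaatccacca
CCAAT is common, standing in 34.6% of all 35116 windows and in those of PDS5A, PDS5B, STAG1 and STAG2. TTTGAA stands in 15.2% of all windows and, among the 7 genes, in SMC3 and PDS5B, and TTTAAA in 12.2% and in none of the 7. The STAT string TTCNNNGAA stands in 7.66% of all windows and in none of the 7, which says only that these letters are not in these windows.

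The hairpin's target was checked first. STAT3 had a mean of 786 normalized counts and stood at 29.8% of scramble per the authors' deposited table (log2 change −1.75, adjusted p = 7.78e-74). Negative values are read as lower in shSTAT3 because of this gene, as the table does not name its numerator. Fold changes in it are shrunken toward 0, and the standard errors and 95% intervals given here follow from each fold change and its p. Both hold only if p was computed from the same shrunken fold change, which is not given in the sources used here. Of 12061 tested genes, those with an adjusted p, 44.5% were called at an adjusted p under 0.05 per the authors' deposited table, 23.2% as lower and 21.3% as higher. Among the 7088 tested genes with a mean of at least 300, as all 10 cohesin genes have, 26.9% were called lower. Of 12 B-cell precursor markers 11 were tested, with means up to 20516 for RAG1, while VPREB1 is listed at 0. T-cell markers, of which TRAC has no row, had means of at most 0.516 and erythroid ones of at most 1.41, per the authors' deposited table. Of 6 myeloid markers 3 were tested, with 1 higher and 1 lower, and MPO alone made up 2330 of their summed mean of 2853. Of 6 fibroblast or epithelial markers 2 were tested and both were lower, with 3 of the 6 listed at 0. PDGFRB alone made up 806 of their summed mean of 858, per the authors' deposited table. The part of other cell types in the values below was not tested.

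Transcripts of 9 of the 10 cohesin genes fell and none rose. The median log2 fold change of the 10 was −0.52, against 0.0027 over all tested genes, and their values ran from −1.13 for ESCO2 to −0.05 for PDS5A per the authors' deposited table. ESCO2 and ESCO1 had the lowest values, PDS5B, SMC3, SMC1A, STAG1 and RAD21 lay between −0.83 and −0.50, and STAG2 and NIPBL had the smallest falls. Many of the intervals overlap, those of ESCO1 and PDS5B among them, and differences between the genes were not tested. PDS5A was the gene that did not pass. In these bulk libraries a smaller share of cells in a phase of the cycle and less RNA per cell cannot be told apart.

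**Figure D1:**
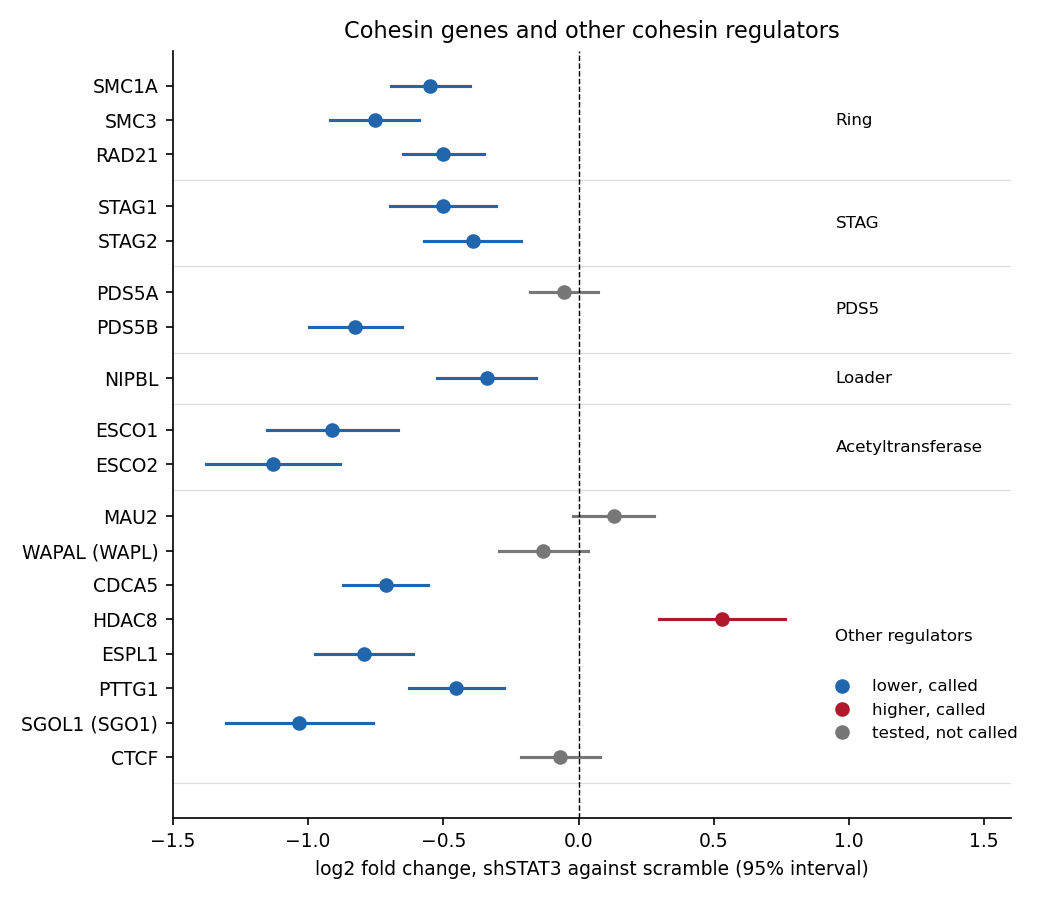
Log2 fold change of shSTAT3 against scramble (horizontal axis) for the 10 cohesin genes and 8 other cohesin regulators, with 95% intervals implied by fold change and p. Blue points were called lower, red higher and grey neither. PDS5A lies at −0.05 with an interval across 0, ESCO2 is lowest at −1.13, and HDAC8 is the single red point at 0.53.

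The core ring fell in all 3 parts. SMC3, the partner whose lysines are acetylated (chromosome 10, 110567691 to 110604636, plus strand, GENCODE 29 on GRCh38), had a mean of 1954 and stood at 59.3% of scramble per the authors' deposited table (log2 change −0.75, 95% interval −0.92 to −0.59, adjusted p = 7.09e-18). SMC1A, on chromosome X from 53374149 to 53422728 on the minus strand, had a mean of 3046 and stood at 68.4% per the authors' deposited table (−0.55, −0.69 to −0.40, adjusted p = 3.57e-12). RAD21, the kleisin that separase cuts, lies on chromosome 8, had a mean of 4553 and stood at 70.7% per the authors' deposited table (−0.50, −0.65 to −0.35, adjusted p = 7.37e-10). The 3 intervals overlap, and without values per library the differences between ring genes were not tested.

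Both STAG genes fell. STAG2, on chromosome X from 123960212 to 124422664, had a mean of 3520 and stood at 76.3% of scramble per the authors' deposited table (log2 change −0.39, 95% interval −0.57 to −0.21, adjusted p = 0.000101). STAG1, on chromosome 3 from 136336233 to 136752403, had a mean of 941 and stood at 70.7% per the authors' deposited table (−0.50, −0.70 to −0.30, adjusted p = 4.08e-06). The intervals of the pair overlap over most of their width. Per kilobase of exon, STAG2 was 3.60 times as abundant as STAG1 in scramble and 3.88 times in shSTAT3, in levels worked out from the mean and the fold change of each gene.

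The PDS5 pair split. PDS5B, on chromosome 13 from 32586427 to 32778019, had a mean of 1736 and fell to 56.4% of scramble per the authors' deposited table (95% interval 50.1% to 63.6%, log2 change −0.83, adjusted p = 1.74e-19). PDS5A, on chromosome 4 from 39822863 to 39977956, had the highest mean of the 10 at 5027 and stood at 96.4% per the authors' deposited table (−0.05, −0.18 to 0.07, adjusted p = 0.526). The interval of PDS5A reaches down to 88.4% of scramble and that of PDS5B up to 63.6%, so the intervals do not overlap, and the difference of 0.77 on the log2 scale was not tested. As a level, PDS5A was 2.29 times PDS5B per kilobase in scramble and 3.91 times in shSTAT3. Both PDS5 proteins bind the ring beside RAD21 and take part in its protection as well as its release.

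Both acetyltransferase genes fell. ESCO2, which works in S phase at replication forks, had a mean of 356 and fell to 45.7% of scramble per the authors' deposited table (log2 change −1.13, 95% interval −1.38 to −0.88, adjusted p = 1.53e-17). ESCO1, which acts through the cell cycle and is bound to PDS5 (chromosome 18, 21529281 to 21600884), had a mean of 562 and fell to 53.2% per the authors' deposited table (−0.91, −1.15 to −0.67, adjusted p = 3.55e-12). Just 1.82% of tested genes had a lower fold change than ESCO2 and 3.88% a lower one than ESCO1. CCDC25, whose start lies 704 bases from that of ESCO2 on the other strand, was at −0.06 per the authors' deposited table (adjusted p = 0.673). ESCO1 and ESCO2 were also the least abundant of the 10 per kilobase.

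**Figure D2:**
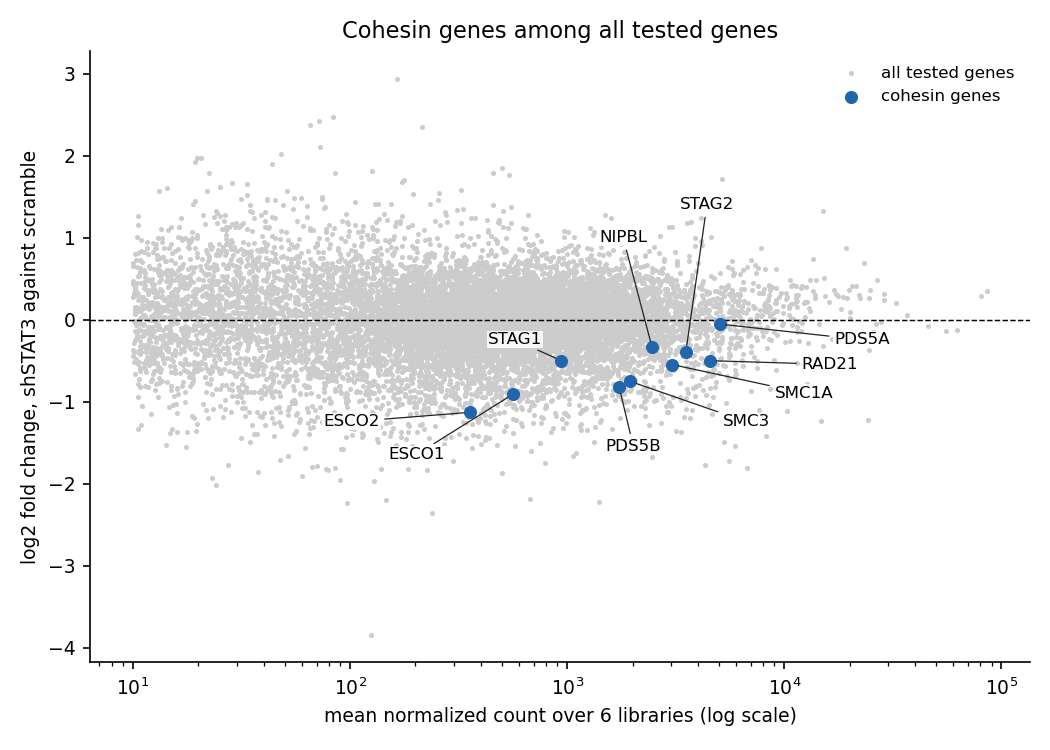
Mean normalized count over the 6 libraries (horizontal, log scale) against log2 fold change of shSTAT3 against scramble (vertical) for 12061 tested genes in grey and the 10 cohesin genes in blue. The cohesin genes lie between means of 356 and 5027, and 9 of them lie at −0.34 or below.

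The loader gene and its divergent neighbour went opposite ways. NIPBL, on chromosome 5 from 36876759 to 37066413 on the plus strand, had a mean of 2460 and fell to 79.1% of scramble, the smallest of the 9 falls, per the authors' deposited table (log2 change −0.34, 95% interval −0.52 to −0.16, adjusted p = 0.0011). NIPBL-AS1, named NIPBL-DT in GENCODE 29 and running on the minus strand from 36876700 back to 36864425, had a mean of 550 and rose 2.60-fold per the authors' deposited table (log2 change 1.38, 95% interval 1.14 to 1.62, adjusted p = 8.34e-27). NIPBL-AS1 was chosen after its value was seen. The 2 starts are 59 bases apart, in the stretch printed above, and the annotated spans do not overlap. Whether reads were counted by strand is not given in the sources used here. SMC1A also has a neighbour at its start, RIBC1, 38 bases away on the other strand, with a mean of only 5.31 and no adjusted p, and RAD21-AS1 had a mean of 5.29 per the authors' deposited table.

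Other pairs of 1 protein-coding and 1 other gene on opposite strands with starts within 1000 bases were then listed. Of 190 such pairs with both genes tested, 41 had both called. The 44.5% called over all tested genes counts single genes, and a call for both genes of a pair is rarer. The like measure is the share over all pairs, given next, and the difference was not tested. Among all 1127 pairs so placed, of any gene type, 234 had both called and 82 of these went opposite ways. In 12 of the 41, NIPBL with NIPBL-AS1 among them, the coding gene was lower and the other higher, and in none was it the reverse. Both genes were higher in 22 pairs and both lower in 7. As counting by strand is not known, overlapping genes on opposite strands may share reads, and this holds for genes named as antisense too. For pairs whose annotated spans do not overlap, 18 of 100 had both called, with 12 both higher and 6 with the coding gene lower and the other higher. Of 234 tested genes named as antisense, 71 were called higher and 9 lower, beside 21.3% higher and 23.2% lower over all tested genes, and no test was made of the difference. NIPBL-AS1 ranked 7 among the 234 by fold.

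**Figure D3:**
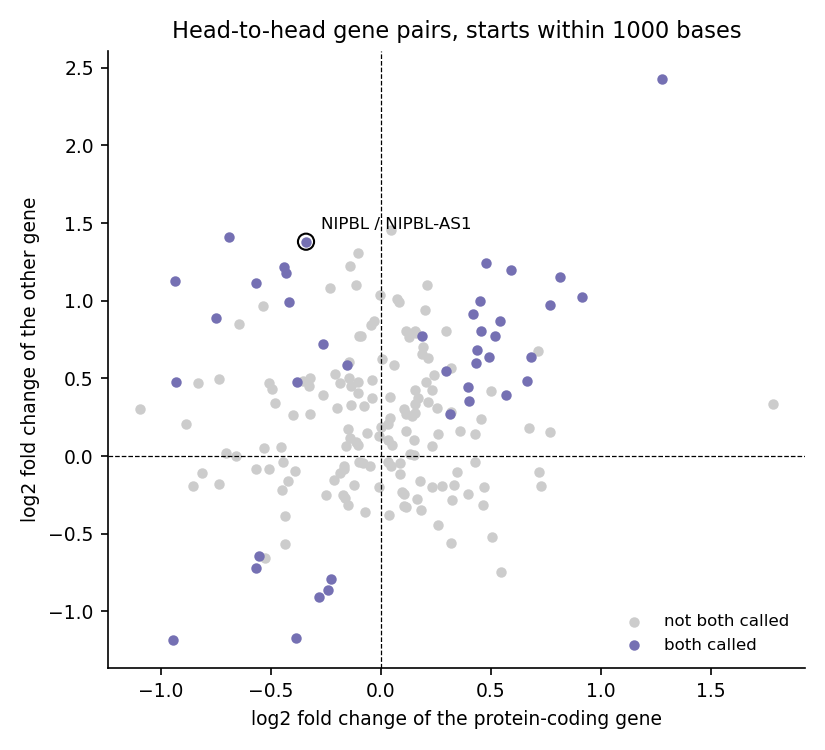
Log2 fold change of the protein-coding gene (horizontal) against that of the other gene (vertical) for 190 pairs on opposite strands with starts within 1000 bases. Purple points have both genes called, and the circled NIPBL pair lies at −0.34 and 1.38 in the upper left, with 11 other purple points.

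Per kilobase of exon the order of the mean levels was RAD21 (822 normalized counts), PDS5A (666), STAG2 (530), SMC3 (475), SMC1A (307), PDS5B (232), NIPBL (231), STAG1 (143), ESCO1 (121) and ESCO2 (90.1). Without libraries to give a spread, neighbours in this order such as PDS5B and NIPBL are not told apart. RAD21 depends most on the length used, with 1214 per kilobase of its longest transcript. Worked out for each group, RAD21 went from 963 in scramble to 681 in shSTAT3, SMC3 from 596 to 354 and SMC1A from 364 to 249. In scramble SMC3 stood at 1.64 times SMC1A per kilobase, and in shSTAT3 at 1.42 times. The rank order of the 10 was the same in both groups except that PDS5B stood above NIPBL in scramble (296 against 258) and below it in shSTAT3 (167 against 204).

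**Figure D4:**
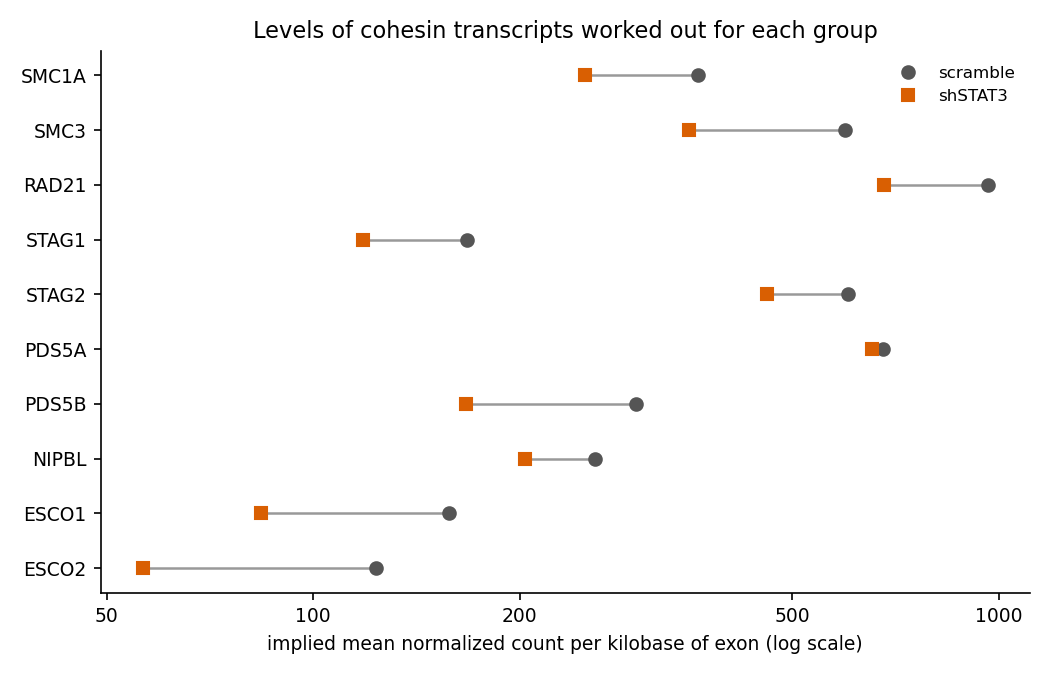
Mean normalized count per kilobase of exon (horizontal, log scale) worked out for scramble (grey circles) and shSTAT3 (orange squares) from the mean and fold change of each of the 10 genes. ESCO2 has the widest gap, from 124 to 56.5, and the symbols of PDS5A nearly touch at 678 and 653.

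Regulators outside the 10 genes moved both ways. Of 8 fixed by name, 4 fell, 1 rose and 3 did not pass, with a median log2 fold change of −0.29, where 23.2% of all tested genes were called lower and 21.3% higher. The 4 that fell act in cohesion or its end, but so do WAPL and HDAC8, which were not called lower. SGO1, shugoshin, which shields centromeric cohesin and is listed as SGOL1, fell to 48.9% of scramble per the authors' deposited table (log2 change −1.03, adjusted p = 1.99e-12). ESPL1 (separase) fell to 57.7% and CDCA5 (sororin) to 61.0% per the authors' deposited table (adjusted p = 3.53e-16 and 1.32e-17). PTTG1 (securin) fell to 73.1% per the authors' deposited table (adjusted p = 2.72e-06).

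HDAC8, the SMC3 deacetylase, rose 1.44-fold per the authors' deposited table (log2 change 0.53, 95% interval 0.30 to 0.76, adjusted p = 4.25e-05). This put the transcript of the eraser of the acetyl mark above its scramble level and those of both writers below theirs. Proteins and SMC3 acetylation were not measured in these RNA libraries. With a Bonferroni adjustment in place of Benjamini-Hochberg the calls of HDAC8, STAG2 and NIPBL were lost (adjusted p = 0.0896, 0.232 and 1).

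Loading partner, release factor and loop anchor did not pass. MAU2, which binds NIPBL, was at 0.13 per the authors' deposited table (95% interval −0.02 to 0.28, adjusted p = 0.159). WAPL, listed as WAPAL, was at −0.13 (interval −0.29 to 0.03, adjusted p = 0.201) and CTCF, the insulator protein at which cohesin halts, at −0.07 (interval −0.21 to 0.08, adjusted p = 0.484) per the authors' deposited table. The interval of MAU2 lies above that of NIPBL without overlap, and the difference was not tested.

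Meiotic counterparts of the ring were near or at 0. RAD21L1 is listed at 0, SMC1B had a mean of 0.178, which is 1.07 normalized reads over all 6 libraries, and STAG3 had a mean of 2.69, per the authors' deposited table. REC8, the meiotic kleisin, had a mean of 23.3 and, at 0.26 on the log2 scale, did not pass per the authors' deposited table (adjusted p = 0.524).

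Related complexes are set beside the cohesin genes as counts, to be read against the 23.2% called lower over all tested genes, and the genes named are those of lowest adjusted p in each. All 8 condensin subunits fell, with a median of −0.86 and with NCAPH, NCAPG and NCAPD2 at −1.26, −1.20 and −0.84 per the authors' deposited table (adjusted p = 8.17e-41, 4.74e-34 and 3.9e-30). Of the 6 SMC5/6 genes 3 fell and 3 did not pass, with a median of −0.30 over the 6 and with SMC6, NSMCE4A and NSMCE2 at −0.53, −0.48 and −0.40 per the authors' deposited table (adjusted p = 3.3e-07, 0.000189 and 0.0451). NSMCE3, listed as NDNL2, was at 0.24 per the authors' deposited table (adjusted p = 0.0825). The NSMCE2 call was lost when p-values were adjusted over every gene with a p (adjusted p = 0.0654). Replication-coupled cohesion factors fell in 6 of 9 cases, by a median of −0.52, with WDHD1, PCNA and CLSPN at −1.16, −0.68 and −0.73 per the authors' deposited table (adjusted p = 7.83e-29, 7.38e-21 and 7.85e-12). Regulators of the centromere and of cleavage fell in 8 of 8 cases, by a median of −0.99, with BIRC5, PLK1 and BUB1 at −1.35, −1.22 and −1.03 per the authors' deposited table (adjusted p = 9.42e-51, 2.59e-46 and 5.22e-32). The part that this shared fall of cell division genes has in the cohesin values was not tested.

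**Figure D5:**
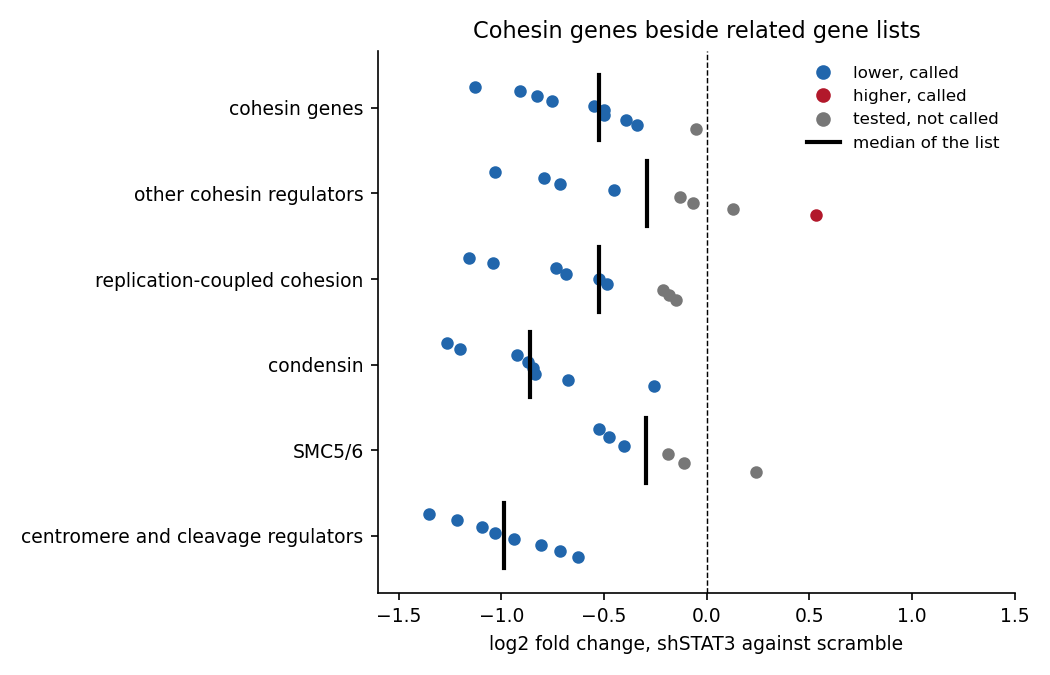
Log2 fold change of shSTAT3 against scramble (horizontal) for each tested gene of 6 lists, with blue for called lower, red for called higher, grey for not called and a black bar at the list's median. The bar of the cohesin genes lies at −0.52, between those of condensin at −0.86 and of SMC5/6 at −0.30.

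The 10 genes are long, with 3957 to 10647 bases of exon and a median of 6613, against 3686 over the tested genes with a known length. Tested genes at least as long as the shortest of them, ESCO2, had a median log2 fold change of −0.0084, and 25.9% of them were called lower. Taken relative to genes of like length, the fold changes of the 10 ran from −1.10 to −0.02 with a median of −0.54, and 9 were called lower. This centring shifted the 10 by only −0.038 to 0.062, too little to change calls of falls of this size.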

How the data were processed

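Total RNA of 6 REH cultures was made into TruSeq RNA v2 libraries, per the labels' protocols. Build hg38 and the tools featureCounts, DESeq2, Bowtie2, Picard, Trimmomatic and bcl2fastq 2.19 are listed, without their order, per the submitters' processing notes. Annotation, strand setting and model were not given in the sources used here. Each deposited mean is a normalized signal (counts divided by size factors, averaged by the authors), and the deposited fold change is a log2 value, per the file headers. The p-value and its adjusted form are the authors' own, fitted across all genes with DESeq2, per the file headers.

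Values per library being absent from the table, the authors' adjusted p under 0.05 was the call, as the plan provided for. The Benjamini-Hochberg adjustment recomputed over the 12061 tested genes differed by at most 2.87e-07. Fold changes are shrunken, as SMC1B, with 1.07 normalized reads in all, stands at only 0.06. Standard errors are fold change over the normal quantile of p. The run of this step on simulated data made p by the same formula, so it checks only the arithmetic. It did not use shrunken fold changes. Group levels split each mean by its fold change. Exon lengths and places came from GENCODE 29 (basic set), and start-site windows from RefSeq (GRCh38.p14). The older symbols WAPAL, SGOL1, GSG2 and NDNL2 were matched to their current names. Named genes are STAT3, the 10 members, both short regulator lists in full, and up to 3 called genes with the smallest adjusted p of other lists. The members and lists were chosen with earlier results of these data known. Mean depth was 11485068 normalized counts per library. Software was scipy 1.17.1, pandas 2.3.3, numpy 2.4.6 and matplotlib 3.10.9 on Python 3.11.15.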

Additional observations from a re-analysis of the deposited data

How the results depend on the processing

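The 9 falls among the cohesin genes were called in each of the alternatives tried (thresholds of 0.01 and 0.1, a mean of at least 50, no filter on the mean, and 3 other centres for the fold changes) except the Bonferroni adjustment, which left 7. That adjustment left 1192 lower and 818 higher calls over all tested genes, 0 of the other regulators higher and 1 SMC5/6 gene lower. It also left 7 of 8 condensin genes lower, without NCAPH2, and 5 of 9 replication-coupled cohesion factors, without TIPIN. A threshold of 0.1 called 1 SMC5/6 gene higher. The SMC5/6 genes called lower went from 3 to 2 at a threshold of 0.01, with no filter on the mean and with fold changes centred on genes of like mean. For counts of calls all 3 centres were chosen after seeing the data, and for single genes the centre on like length was. The centres shifted the cohesin genes by at most 0.062, so the 9 calls could hardly change under them. No paired analysis was possible because the table has no value per library, so leaving out a replicate, the replicate block and a second count test were not run.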

Other observations

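Shugoshin shields cohesin by bringing the phosphatase PP2A with a B56 subunit to the centromere, and of the 5 B56 genes 2 were called lower and 3 did not pass, where 23.2% of all tested genes were called lower. PPP2R5C and PPP2R5E stood at 68.0% and 69.4% of scramble per the authors' deposited table (log2 changes −0.56 and −0.53, adjusted p = 4.28e-11 and 4.27e-08). PPP2R5A, PPP2R5B and PPP2R5D were at −0.11, −0.38 and −0.03 and did not pass per the authors' deposited table (adjusted p = 0.395, 0.0893 and 0.803). Of other factors found at loop anchors, YY1 and ZNF143 fell by 0.22 and 0.33 on the log2 scale and MAZ was at 0.01 per the authors' deposited table (adjusted p = 0.0168, 0.0384 and 0.915). These lists were written after the data were seen.

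STAG3 was near 0, and of 6 STAG3-like rows 3 were called higher, 1 did not pass and 2 have no adjusted p. Over all tested genes 21.3% were called higher, and the difference was not tested. The STAG3-like rows were not among the genes named in the plan. STAG3L2 and STAG3L4 rose 1.76-fold and 1.48-fold per the authors' deposited table (log2 changes 0.82 and 0.57, adjusted p = 1.45e-07 and 0.00132). The readthrough STAG3L5P-PVRIG2P-PILRB rose to 135% of scramble per the authors' deposited table (log2 change 0.43, adjusted p = 0.00492). STAG3L1 was at 0.51 and did not pass, and STAG3L3 and STAG3L5P had means of 7.05 and 2.02 per the authors' deposited table (adjusted p = 0.146 for STAG3L1). Apart from the readthrough, these genes are near-identical copies, so their values depend on how shared reads were assigned. The readthrough by its name also spans PVRIG2P and PILRB, so its rise need not come from STAG3-like sequence.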
